A study of Mus musculus with 18 samples.

Results

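The 8 insulin and IGF signalling genes described here were taken from the expression table by their symbols: Igf1, Insr, Igf1r, Igf2r, Irs1, Irs2, Igfbp3 and Igfbp4, 8 of 19326 entries. RNA was sequenced from whole spleen of ICR mice aged 10 weeks, in 6 groups of 3 libraries. Control mice were untreated, and those of the AOS group were given AOS at 10 mg/kg, an agent whose abbreviation the labels do not spell out. The HS group had a high fat diet and STZ (streptozotocin, a compound toxic to insulin-producing beta cells), and the HS_AOS group had the diet, STZ and AOS at 10 mg/kg. Mice of the last pair of groups had the diet and STZ together with FMT, the usual abbreviation for faecal microbiota transplantation: HS_AOSFMT with the material labelled AOS10mg/kg-FMT, and HS_conFMT with that labelled control-FMT. Neither the donors nor the number of animals behind the 3 libraries of each group are named in the labels, so every p-value measures the spread between these libraries, which may be partly technical.

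Insulin binds the insulin receptor, and insulin-like growth factor 1 binds the IGF1 receptor. Both receptors are tyrosine kinases that phosphorylate the docking proteins IRS1 and IRS2, which recruit PI3 kinase, activate AKT and keep the FOXO transcription factors out of the nucleus. Secreted IGF binding proteins hold IGF1 in the circulation and in tissue and limit its access to the receptor, while the type 2 receptor carries IGF2 to the lysosome. In spleen, IGF1 is known from macrophages and stromal cells, and both receptors are present on lymphocytes and myeloid cells.

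None of the 8 genes passed the test between any of the groups compared. Across 9 comparisons, 0 of 72 gene-by-comparison tests had a Benjamini-Hochberg adjusted p under 0.05 by limma, a linear model fitted to all genes. The smallest adjusted p was 0.0708, and 5 of the 72 had an unadjusted p under 0.05. Of all genes, 5.2% to 31.9% had such a p, depending on the comparison. The fitted changes were small: the largest was 0.42 on the log2(FPKM + 1) scale, and the bounds of all the 95% intervals lay between -0.59 and 0.74. That scale understates the fold changes of genes at a few FPKM. In HS_AOSFMT against HS, 9.23% of all genes were called (8.08% higher, 1.15% lower). There, 7 of 17 listed brakes on the same pathway (6 higher, 1 lower) and 3 of 15 listed FOXO targets passed the test. With haemoglobin and acinar genes left out of the scaling, the calls over all genes fell from 1197 to 346. Under that scaling, 4 of 18 brakes and 2 of 15 FOXO targets were called higher and 1 brake lower. They are described after the 8 genes.

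Summed values per library ran from 666441 to 831448 FPKM (fragments normalised to transcript length and library size, a unit inferred from the values), and 12221 to 12898 genes reached 1 FPKM. The read depth behind these values is unknown, so no counting interval is given. Haemoglobin transcripts took 12.9% to 35.5% of the summed FPKM in all libraries. Pancreatic acinar genes, which belong to a neighbouring organ, took from 0.00287% to 3.17%. Control library 1 had a summed level of 15980 FPKM over 12 neutrophil markers, against 590.3 to 4364 FPKM in the other libraries. Markers of stroma, endothelium and red pulp macrophages were detected in all 18 libraries. In whole tissue, fewer cells of a type and less RNA per cell cannot be told apart, and this holds for each level below.

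Igf1, the ligand, encodes a secreted growth factor and is on mouse chromosome 10 (mm10, chr10:87858265-87937042, plus strand). Its level was 5.51, 7.66 and 8 FPKM in the control libraries, 7.87, 9.05 and 8.60 in AOS and 7.34, 8.54 and 7.19 in HS. It was 8.25, 8.49 and 8.04 FPKM in HS_AOS, 7.79, 6.12 and 5.98 in HS_AOSFMT and 8.13, 9.26 and 7.20 in HS_conFMT. The group means ran from 6.63 ± 1.01 FPKM (SD, n = 3) in HS_AOSFMT to 8.51 ± 0.596 in AOS, a ratio of 1.28. The order from high to low was AOS, HS_AOS, HS_conFMT, HS, control and HS_AOSFMT, and each neighbouring pair in that order had overlapping libraries. Igf1 lay above 37.0% of the genes tested. The insulin genes themselves were nearly undetected: Ins1 was listed at 0 in 15 libraries and did not exceed 1.08 FPKM, and Ins2 was listed at 0 in 13 libraries and did not exceed 2.36 FPKM. Igf2, the fetal growth factor that also binds the type 2 receptor, had a median of 3.98 FPKM.

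Insr, the insulin receptor, is on chromosome 8 (chr8:3122061-3279617, minus strand), and its transcript was present in every library. It stood at 5.04, 5.71 and 6.38 FPKM in control, at 4.87, 5.55 and 4.48 in AOS and at 5.13, 4.94 and 5.58 in HS. It stood at 6.20, 6.10 and 6.55 FPKM in HS_AOS, at 6.97, 5.61 and 7.15 in HS_AOSFMT and at 5.64, 5.82 and 5.41 in HS_conFMT. All HS_AOS and HS_AOSFMT libraries were above all HS libraries, although HS_AOSFMT library 2 cleared the highest HS library by little. Of all genes, 11% did not overlap between HS_AOS and HS, and 38.5% between HS_AOSFMT and HS. The HS_AOS and HS_AOSFMT means were 6.28 ± 0.236 and 6.58 ± 0.842 FPKM, against 5.22 ± 0.329 in HS (SD, n = 3 each). Of the variance of Insr over the libraries, 63.0% lay between groups, a share higher than in 85.1% of the genes tested. Its order was HS_AOSFMT, HS_AOS, control, HS_conFMT, HS and AOS, with overlap at each of the 5 steps.

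Igf1r, the receptor that transmits the IGF1 signal, is on chromosome 7 (chr7:67952827-68233668, plus strand). Its control libraries were at 4.72, 4.29 and 3.04 FPKM, its AOS libraries at 3.05, 4.18 and 2.80 and its HS libraries at 4.04, 3.36 and 4.12. The HS_AOS libraries were at 3.10, 3.81 and 3.50 FPKM, the HS_AOSFMT libraries at 4.03, 4.33 and 4.37 and the HS_conFMT libraries at 4.21, 5.33 and 3.74. The HS_AOSFMT libraries lay close together (SD 0.186 FPKM), whereas the control and HS_conFMT libraries were spread widely (SD 0.873 and 0.817 FPKM), so that no neighbouring groups separated. From high to low the means stood in the order HS_conFMT, HS_AOSFMT, control, HS, HS_AOS and AOS. Insr exceeded Igf1r in every library, by a ratio of FPKM from 1.07 to 2.10.

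Igf2r, the cation-independent mannose 6-phosphate receptor that clears IGF2 and sorts lysosomal enzymes, is on chromosome 17 (chr17:12682406-12769664, minus strand). It varied least of the 8 genes, with a coefficient of variation of 10.0% over the 18 libraries and a range of 4.56 to 6.25 FPKM. Its values were 4.56, 5.15 and 5.92 FPKM in control, 6.10, 6.22 and 5.6 in AOS and 6.10, 5.92 and 5.87 in HS. In HS_AOS they were 5.95, 5.78 and 4.90 FPKM, in HS_AOSFMT 5.16, 4.96 and 6.25, and in HS_conFMT 4.72, 6 and 5.10. The highest and the lowest library of the whole range, HS_AOSFMT 3 and control 1, both lay in groups that overlapped the rest. The order of means was AOS, HS, HS_AOS, HS_AOSFMT, HS_conFMT and control. The antisense transcript Airn runs against Igf2r without sharing an exon with it.

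Irs1 and Irs2 encode the docking proteins that couple both receptors to PI3 kinase. The 250 bases before the RefSeq start of each gene are shown because the docking proteins share a role but differed in level. Positions are counted from that start. It lies upstream of the GENCODE gene bounds printed below, chiefly for Irs2, whose GENCODE bound is 11008458. The sequences are from RefSeq (GRCm38.p6), 5′ to 3′ on the strand of the gene, which is the minus strand for both. Irs1 covers chr1:82291440-82291689 and Irs2 covers chr8:11008930-11009179. Capitals mark matches to the E-box CACGTG, the GC-box GGGCGG and the CCAAT box, read on both strands.
Irs1: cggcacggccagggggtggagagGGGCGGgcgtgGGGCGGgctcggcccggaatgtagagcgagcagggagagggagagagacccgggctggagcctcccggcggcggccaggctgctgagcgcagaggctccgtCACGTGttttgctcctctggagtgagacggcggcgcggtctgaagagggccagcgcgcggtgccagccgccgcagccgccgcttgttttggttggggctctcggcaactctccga
Irs2: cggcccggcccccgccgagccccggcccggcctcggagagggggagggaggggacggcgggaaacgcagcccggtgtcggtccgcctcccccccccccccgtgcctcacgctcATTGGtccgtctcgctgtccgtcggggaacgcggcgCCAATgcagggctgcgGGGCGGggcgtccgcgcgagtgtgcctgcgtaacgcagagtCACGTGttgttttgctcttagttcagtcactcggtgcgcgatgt
Each holds 1 E-box, with its first base at -115 for Irs1 and at -44 for Irs2 relative to the start, and CACGTG was found in 6.02% of the 32851 RefSeq promoter windows of this length. Irs1 holds 2 GC-boxes and Irs2 holds 1, a motif of 32.7% of windows. Irs2 alone of the pair holds CCAAT, at 2 places, a motif of 33.8% of windows. Neither window matched the FOXO core TGTTTAC (3.17% of windows) or its shorter form TGTTTNC (17.8%), which contains the former, nor the glucocorticoid half-site TGTTCT (16.1%). These matches describe letters in the window and do not show binding.

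Irs1 (chr1:82233101-82291416, minus strand) was the lowest of the 8 genes and reached 1 FPKM in 10 of 18 libraries. It was at 0.66, 1.03 and 1.03 FPKM in control, 0.74, 1.24 and 0.99 in AOS and 0.79, 1.20 and 1.02 in HS. It was at 0.89, 0.93 and 0.92 FPKM in HS_AOS, 1.15, 0.99 and 1.14 in HS_AOSFMT and 1.18, 1.51 and 1.09 in HS_conFMT. Every HS_conFMT library was above every control library, with means of 1.26 ± 0.221 and 0.907 ± 0.214 FPKM (SD, n = 3). Of all genes, 9.77% did not overlap between these groups. The Irs1 means ran from HS_conFMT through HS_AOSFMT, HS, AOS and HS_AOS to control. Because the pseudocount of 1 FPKM is about as large as its level, fold changes of Irs1 on the fitted scale are understated. Those of other genes at a few FPKM, Irs2 among them, are understated to a lesser degree.

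Irs2 (chr8:10984681-11008458, minus strand), the docking protein known for its feedback through FOXO in liver, was 2.43 to 6.16 times as high as Irs1 per library. It was at 3.99, 3.80 and 5.58 FPKM in control, 4.48, 3.82 and 4.98 in AOS and 4.78, 4.53 and 4.62 in HS. It was at 5.48, 4.77 and 4.88 FPKM in HS_AOS, 4.27, 5.64 and 5.91 in HS_AOSFMT and 3.28, 3.67 and 4.05 in HS_conFMT. The HS_conFMT libraries lay below all HS, HS_AOS and HS_AOSFMT libraries and overlapped those of control and AOS. Of all genes, 10.8% did not overlap between HS_conFMT and HS, and 28.8% between HS_conFMT and HS_AOSFMT. HS_conFMT and HS_AOS were not compared over all genes. The Irs2 mean was 3.67 ± 0.385 FPKM in HS_conFMT and 5.27 ± 0.879 in HS_AOSFMT (SD, n = 3), a ratio of 1.44, the widest between group means of the 8 genes. Its order was HS_AOSFMT, HS_AOS, HS, control, AOS and HS_conFMT. The Irs2 to Irs1 ratio had a median of 2.78 in HS_conFMT and medians from 4.53 to 5.42 in the other groups. Its HS_conFMT range, 2.43 to 3.72, overlapped those of AOS (3.08 to 6.05), control (3.69 to 6.05) and HS_AOSFMT (3.71 to 5.70). The ratio rests on the low values of Irs1. Each docking gene shares exon sequence with a gene on the opposite strand (Gm9747 for Irs1, 9530052E02Rik for Irs2), and since the sources used here do not say whether counting used strand, reads of the partners cannot be told apart.

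Igfbp3 and Igfbp4 encode secreted binding proteins, IGFBP3 being the main carrier of IGF1 in serum and IGFBP4 a local inhibitor that is cleaved by the protease PAPPA. Both genes are on chromosome 11, Igfbp3 on the minus strand (chr11:7206086-7213923) and Igfbp4 on the plus strand (chr11:99041244-99054392). Their upstream windows are shown because the genes were similar in level and moved together between libraries. They are again the 250 bases before the RefSeq start on the strand of the gene, chr11:7213924-7214173 for Igfbp3 and chr11:99040994-99041243 for Igfbp4, and the capitals mark TATAAA.
Igfbp3: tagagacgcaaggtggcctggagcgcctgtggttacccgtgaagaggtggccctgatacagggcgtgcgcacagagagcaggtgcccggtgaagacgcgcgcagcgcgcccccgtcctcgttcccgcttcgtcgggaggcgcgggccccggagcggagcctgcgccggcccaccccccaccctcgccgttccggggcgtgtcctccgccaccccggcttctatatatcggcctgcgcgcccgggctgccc
Igfbp4: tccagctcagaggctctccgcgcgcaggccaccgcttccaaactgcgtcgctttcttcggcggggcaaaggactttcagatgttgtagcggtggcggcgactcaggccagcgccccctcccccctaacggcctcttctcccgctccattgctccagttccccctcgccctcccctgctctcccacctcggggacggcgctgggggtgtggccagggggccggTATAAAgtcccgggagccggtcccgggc
Igfbp4 holds TATAAA with its first base at -28, a motif found in 12.4% of windows. The Igfbp3 window held none of the motifs searched, which were those named above and the cAMP response element TGACGTCA (1.55% of windows) with its half-site TGACGT (6.47%), which the full element contains. The GC content was 73.2% for Igfbp3 and 69.2% for Igfbp4, against a median of 52.4% over all windows. Of the 8 genes, 7 had a RefSeq promoter entry, and Insr had none.

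Igfbp3 was at 56.17, 88.36 and 104.98 FPKM in control, 83.31, 87.91 and 74.25 in AOS and 76.78, 103.99 and 97.63 in HS. It was at 90.45, 111.56 and 91.38 FPKM in HS_AOS, 120.15, 78.50 and 94.07 in HS_AOSFMT and 94.47, 110.89 and 98.36 in HS_conFMT. The spread inside the groups was wide, with an SD of 24.8 FPKM in control and 21.0 in HS_AOSFMT, and only 25.0% of the variance lay between groups. Igfbp4 was at 69.27, 95.22 and 98.60 FPKM in control, 87.61, 91.87 and 77.49 in AOS and 81.41, 111.41 and 91.11 in HS. It was at 98.38, 99.06 and 90.16 FPKM in HS_AOS, 89.99, 77.37 and 79.08 in HS_AOSFMT and 99.42, 114.76 and 89.23 in HS_conFMT. Both genes lay above 93.5% or more of the genes tested, the highest position among the 8. Igfbp3 ran in the order HS_conFMT, HS_AOS, HS_AOSFMT, HS, control and AOS, and Igfbp4 in the order HS_conFMT, HS_AOS, HS, control, AOS and HS_AOSFMT, with overlap at every step of both. The ratio of Igfbp3 to Igfbp4 ran from 0.811 to 1.34, and its HS_AOSFMT values were 1.01, 1.19 and 1.34. The ratio of Igfbp3 to Igf1 was 12.8 to 15.7 in HS_AOSFMT and 8.63 to 10.6 in AOS. Other binding proteins were present at other levels, with medians of 510.2 FPKM for Igfbp7, 21.8 for Igfbp5, 15.6 for Igfbp2 and 12.1 for Igfbp6, while Igfbp1 did not exceed 0.52 FPKM.

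**Figure D1:**
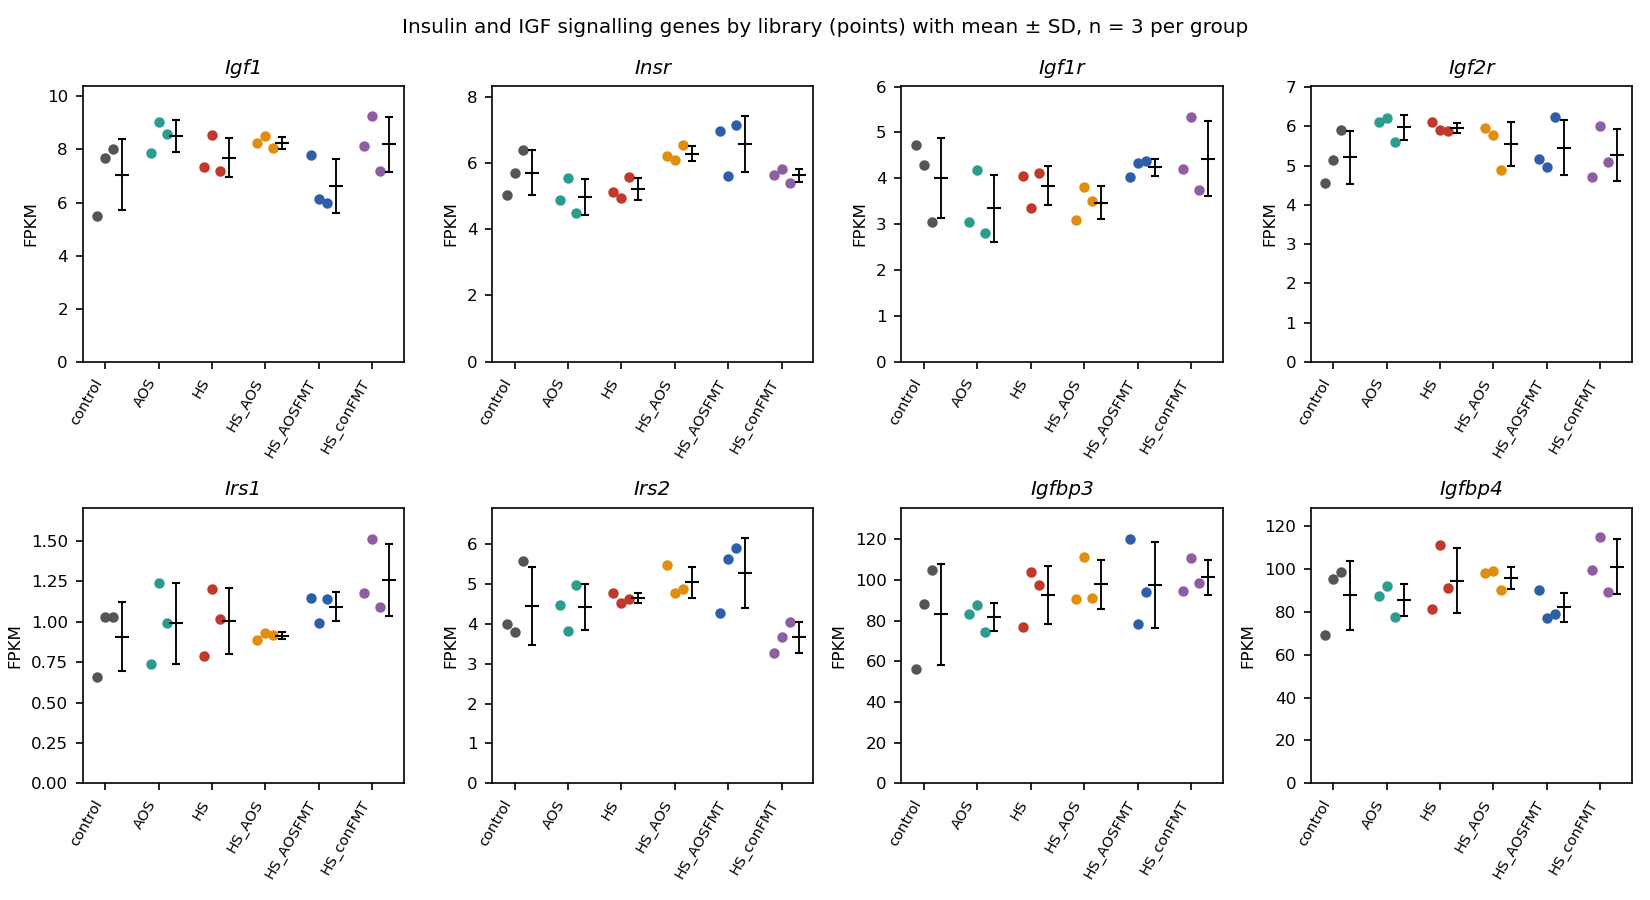
FPKM of each of the 8 genes (linear axis from 0) in the 18 libraries, with 1 point per library, colours for the 6 groups, and a bar for the group mean ± SD (n = 3). The groups of each gene overlap for the most part, and the low points at the left of the Igf1, Irs1, Igfbp3 and Igfbp4 panels are control library 1.

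The effect of the diet and STZ alone was read from HS against control. 0 of the 8 genes were called by limma against 0.0154% of all genes, and 0 had an unadjusted p under 0.05, against 6.4% of all genes. 0 of the 8 had groups that did not overlap, against 8.54% of all genes. The adjusted p of the 8 genes ran from 0.859 to 0.99. Their fitted changes lay between -0.11 and 0.19, with a median of 0.09 against -0.01 for all genes tested, and the intervals reached from -0.35 to 0.61. AOS without the diet gave the same count against control, 0 of 8 called and 0 with an unadjusted p under 0.05, where 0.00771% of all genes were called and 11.3% had such a p. 0 of the 8 were apart in that comparison, against 16.4% of all genes, and the fitted changes ran from -0.21 to 0.25.

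With the diet and STZ in both groups, AOS (HS_AOS against HS) gave 0 of 8 genes called, against 0% of all genes, and 1 with an unadjusted p under 0.05, against 5.2% of all genes. That gene was Insr, which was also the 1 gene of the 8 with groups apart, a state shared by 11% of all genes. The fitted change of Insr was 0.23 ± 0.0996 (SE), with a 95% interval of 0.02 to 0.44 and an adjusted p of 0.933 by limma. The difference between the AOS effects with and without the diet and STZ was tested as an interaction, in which 0 of 8 genes and 0.00771% of all genes were called. Insr again had the sole unadjusted p under 0.05 among the 8, against 5.97% of all genes, with an interaction of 0.40 ± 0.141 (SE; interval 0.10 to 0.70) and an adjusted p of 0.704 by limma. The Insr means behind it were 4.97 FPKM in AOS against 5.71 in control, and 6.28 in HS_AOS against 5.22 in HS.

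Transplants were compared with HS, with each other and with control. In HS_AOSFMT against HS, 0 of the 8 genes were called by limma, while 9.23% of all genes were. Insr had the only unadjusted p under 0.05 of the 8 and the only groups apart, where 28% of all genes had such a p and 38.5% were apart. Its change of 0.28 ± 0.0996 (SE; interval 0.07 to 0.49) had an adjusted p of 0.0852. The median of all genes in this comparison was itself 0.10, moving to 0.22 when the libraries were rescaled to equal totals and to -0.0083 when haemoglobin and acinar genes were left out of the rescaling. The change of Insr was 0.41 and 0.19 under those scalings, with adjusted p of 0.0825 and 0.376. In HS_conFMT against HS, 0 of 8 genes and 0.00771% of all genes were called, and 0 of the 8 had an unadjusted p under 0.05, against 6.32% of all genes. Irs2 was apart in that comparison, as were 10.8% of all genes, with a change of -0.28 ± 0.131 (SE; interval -0.55 to 0.0005) and an adjusted p of 0.774 by limma.

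The comparison between the transplants held the nearest approach to a call. In HS_AOSFMT against HS_conFMT, 0 of 8 genes were called, against 5.85% of all genes, and 2 had an unadjusted p under 0.05, against 22.8% of all genes. Irs2 was 0.42 ± 0.131 (SE; interval 0.14 to 0.70) higher in HS_AOSFMT with an adjusted p of 0.0708, and all 3 of its libraries were above all 3 of HS_conFMT, a separation seen in 28.8% of all genes. Igf1 was 0.27 ± 0.126 (SE) lower on the fitted scale, written as -0.27 with an interval from -0.54 to -0.0028, and its adjusted p by limma was 0.214. HS_AOSFMT library 1, at 7.79 FPKM, lay inside the HS_conFMT range. Against control, 0 of 8 genes were called in HS_AOSFMT, where 12% of all genes were called, and 0 had groups apart, against 31.6% of all genes. In HS_conFMT against control, 0 of 8 were called, against 0.0386% of all genes, and Irs1 was apart, as were 9.77% of all genes (change 0.25 ± 0.122 SE, adjusted p 0.445 by limma). In these comparisons with control 0 of the 8 had an unadjusted p under 0.05, against 31.9% of all genes for HS_AOSFMT and 11.7% for HS_conFMT. The comparisons that include HS_AOSFMT share its libraries, as those with HS or control share theirs, so they are not independent of each other. Over the 64 comparisons between pairs of groups, 5 had groups apart, and 67 of the 72 intervals held 0. The intervals give the range of changes that these few libraries leave possible, and the missing calls do not show that the levels were equal.

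**Figure D2:**
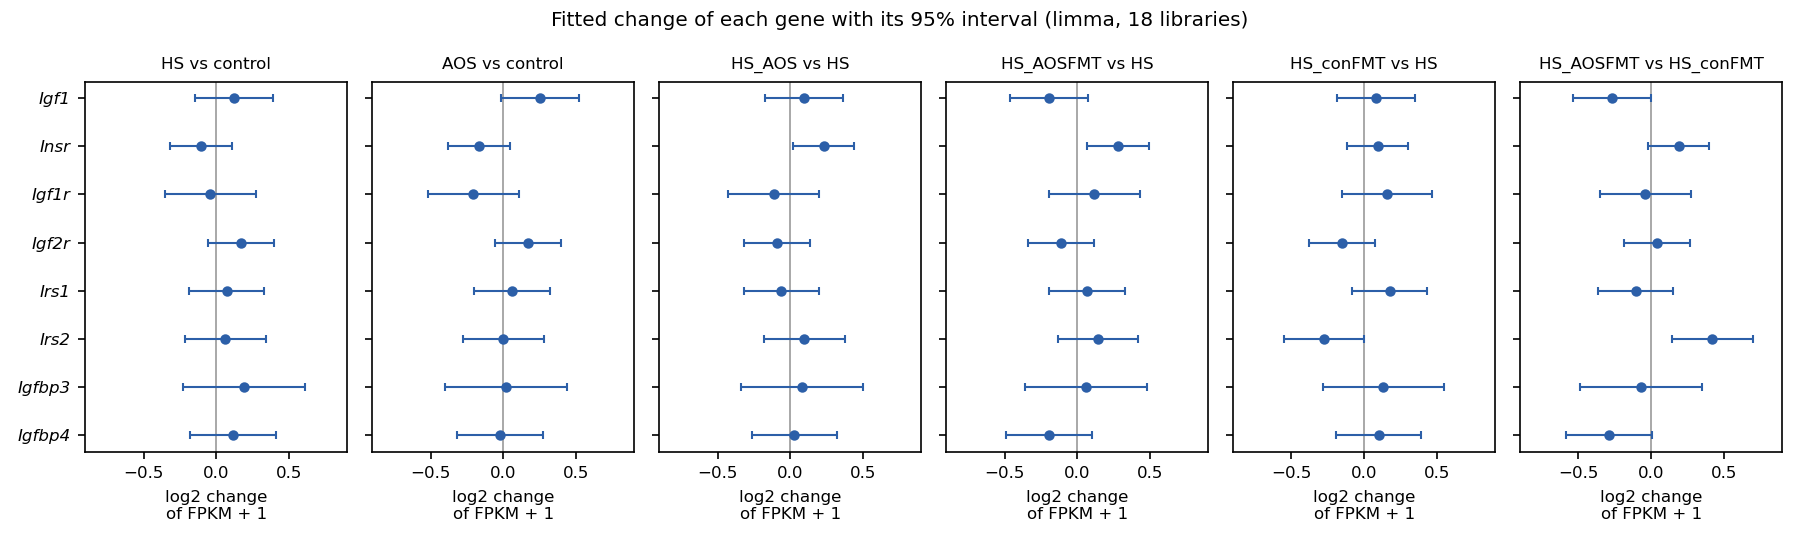
Fitted change of each of the 8 genes, as the difference of log2(FPKM + 1), in 6 comparisons, with points for the estimate and bars for the 95% interval from limma over all 18 libraries. Most bars cross the line at 0, and the largest change is that of Irs2 in HS_AOSFMT against HS_conFMT, 0.42.

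The genes were then compared across libraries after the group means were taken out, so that the values describe variation among libraries of 1 group. Igf1, Irs1, Igfbp3 and Igfbp4 moved together: the 6 pairs among them had Pearson's r from 0.696 to 0.871 over 18 libraries. The 4 genes were grouped with these values known, and Insr with Igfbp3 came next of the 28 pairs, at 0.664. Igf1 with Igfbp4 gave the highest, 0.871, and Igfbp3 with Igfbp4 gave 0.856. Irs2 did not move with them, since its correlations with the other 7 genes ran from -0.574, with Igf1r, to 0.426. Control library 1, which held the high neutrophil markers, was the lowest library for 5 of the 8 genes. Without it the 6 correlations were 0.551 to 0.782 over 17 libraries. HS_conFMT library 2 was the highest library for 4 of the 8 genes. With the group means left in, the 6 correlations ran from 0.475 (Igf1 with Irs1) to 0.773 (Igfbp3 with Igfbp4), and Insr with Igfbp3 had 0.563. These correlations are descriptions over libraries that share their scaling, and no test was attached to them.

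**Figure D3:**
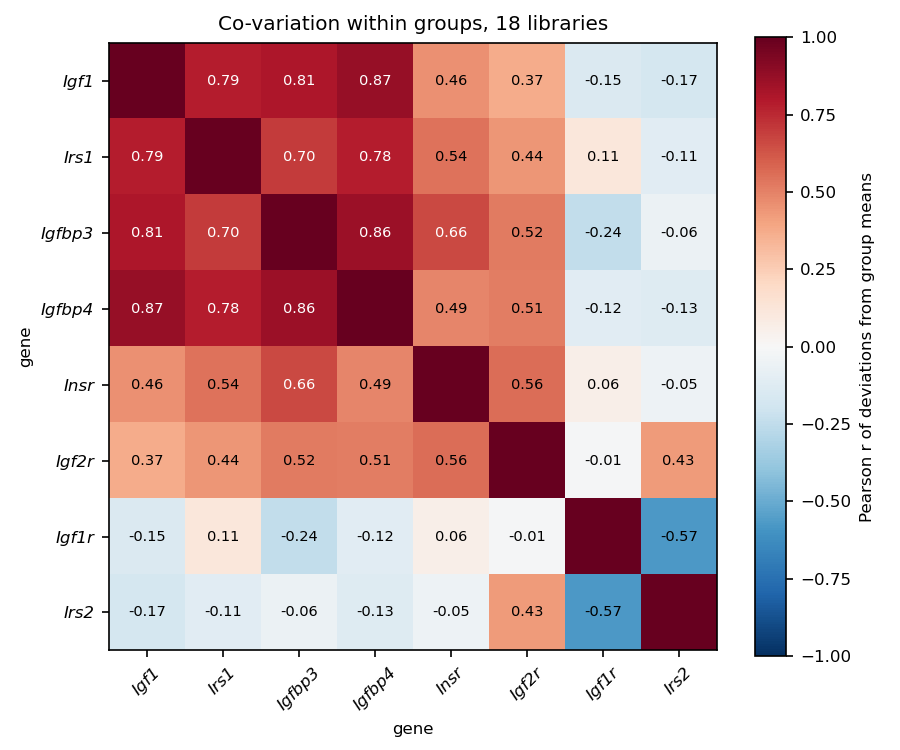
Pearson's r between the 8 genes over 18 libraries, on log2(FPKM + 1) with the mean of each group taken out; the colour scale runs from -1 (blue) to 1 (red). The block of red at the upper left holds Igf1, Irs1, Igfbp3 and Igfbp4, with r from 0.696 to 0.871.

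Marker lists of several cell types varied along with this set. Here r was taken on log2(FPKM + 1) with the group means left in, so it includes differences between groups. The mean of 14 fibroblast and reticular stroma markers had r of 0.755 with Igf1, 0.760 with Irs1, 0.715 with Igfbp4 and 0.583 with Igfbp3. That made it the highest of the lists for the first 3 genes. For Igfbp3 the highest were the means of 8 B cell markers (0.751) and of 10 endothelial markers (0.737). Irs1 also had r of 0.655 with 5 mesothelium markers and 0.618 with 9 adipocyte markers. For the mean of 12 neutrophil markers the values were -0.678 with Igf1, -0.340 with Irs1, -0.559 with Igfbp4 and -0.616 with Igfbp3. With 8 monocyte markers they were -0.679, -0.292, -0.582 and -0.528 in the same order. With 14 red pulp macrophage markers they were 0.453, 0.434, 0.419 and 0.375. Control library 1 was included in these values, which were not taken again without it. The summed stroma markers ranged from 612.9 to 1011 FPKM in control, 893.3 to 1003 in AOS, 749.8 to 885.1 in HS, 759.1 to 873.2 in HS_AOS, 761.5 to 989.3 in HS_AOSFMT and 916.5 to 1122 in HS_conFMT. The part of these cells in the levels of the 4 genes was not tested.

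Among 12492 other genes, those whose pattern over the 18 libraries was most like that of a member were named by Pearson's r, 3 for each. The group means were left in here too. Igfbp3 was closest to Epas1 (r = 0.923), the hypoxia-inducible factor of endothelium, followed by Sh3pxd2a (0.918) and Prrt2 (0.894). Igf1 was closest to Unc5b (0.910), a netrin receptor, followed by Ctdsp2 (0.887) and Kank2 (0.885). Igfbp4 was closest to Spns2 (0.864), a sphingosine 1-phosphate exporter, followed by Olfml1 and Lamb2 (both 0.858). Irs1 was closest to Cdkn1c (0.879), Cntfr (0.849) and Fgfr1 (0.844). Among the receptors, Insr was closest to Hgsnat (0.857), Synpo (0.836) and Grrp1 (0.834), Igf2r to Castor2 (0.870), Eif2ak3 (0.824) and Tgm1 (0.799), and Igf1r to Tsc22d1 (0.792), Mcu (0.788) and Crispld2 (0.774). Irs2 was closest to Prkar2a (0.828), a regulatory subunit of protein kinase A, then Pds5a (0.812) and Cenpj (0.778).

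The wider pathway was described by 110 listed genes, of which 102 were not among the 8 and 91 of those passed the filter. In HS_AOSFMT against HS, 12 of the 91 rose and 2 fell by limma (15.4%, against 9.23% of all genes, 8.08% up and 1.15% down), with a median change of 0.11 against 0.10 for all genes. Leaving out haemoglobin and acinar genes from the scaling left 6 higher and 2 lower, and the calls over all genes went from 1197, of which 1048 were higher, to 346, of which 204 were higher. In HS_AOSFMT against HS_conFMT, 8 rose and 0 fell (8.79%, against 5.85% of all genes, 4.81% up and 1.04% down), and against control 18 rose and 1 fell (20.9%, against 12%, 9.68% up and 2.34% down). With that scaling the counts were 3 higher and 1 lower against HS_conFMT, and 12 higher and 1 lower against control. The calls over all genes fell as well in both comparisons, as given in the last section, so the shares above belong to the main fit alone. In the other 6 comparisons 0 of the 91 were called. Of the 14 genes called against HS and the 8 called against HS_conFMT, 7 were the same genes (50% and 87.5% of the lists), in comparisons that share the HS_AOSFMT libraries.

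By role, none of the calls against HS was among the 2 ligands, 3 receptors, 10 binding proteins and their proteases, 3 FOXO factors, 5 growth hormone axis genes and 4 glucose transporters tested, the 8 genes included. Of 17 brakes tested, proteins that limit the signal, 6 rose and 1 fell (median 0.26 against 0.10 for all genes), and against HS_conFMT 4 rose and 0 fell. Of 15 FOXO targets 3 rose in each of those comparisons, of 15 PI3 kinase and AKT genes 2 rose against HS, of 14 mTOR genes 1 rose, and of 11 docking proteins and adaptors 1 fell. Over all genes, 8.08% rose and 1.15% fell against HS and 4.81% rose against HS_conFMT, and the shares called among the PI3 kinase and AKT genes (13.3%), the mTOR genes (7.14%) and the docking proteins (9.09%) lay near the 9.23% of all genes called. When rescaled without haemoglobin and acinar genes, 4 of 18 brakes and 2 of 15 FOXO targets were called higher against HS. There, 1 brake and 1 docking protein were called lower, with 0 of the PI3 kinase and AKT genes and 0 of the mTOR genes called. Against HS_conFMT, 3 of 18 brakes were called higher and 1 PI3 kinase or AKT gene lower. Under this scaling the calls over all genes fell as well, to 346 against HS. Pik3cg (14.4 ± 1.72 against 10.7 ± 1.03 FPKM, change 0.40, limma adjusted p 0.0453) and Btg1 (204.8 ± 9.96 against 139.4 ± 20.4, change 0.56, adjusted p 0.049) complete the counts of PI3 kinase genes and FOXO targets against HS, and were named with their values known.

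Inpp5d, which encodes SHIP1, the phosphatase that removes the 5-phosphate from the lipid product of PI3 kinase in blood cells, changed most clearly among the brakes. It was at 104.75, 91.94 and 98.21 FPKM in HS_AOSFMT, against 52.81, 52.24 and 51.28 in HS and 48.69, 64.32 and 54.60 in HS_conFMT. The other 15 libraries ranged from 48.58 to 64.32 FPKM, so no library of another group reached the HS_AOSFMT range. Of all genes, 38.5% did not overlap between HS_AOSFMT and HS, and 28.8% between HS_AOSFMT and HS_conFMT. How many genes stood apart from all other libraries was not counted. The change of Inpp5d was 0.90 ± 0.0981 (SE) against HS with a limma adjusted p of 0.000177, and 0.81 against HS_conFMT with an adjusted p of 0.000515. Phlpp1, a phosphatase of AKT, was at 7.06, 7.34 and 6.83 FPKM in HS_AOSFMT, 3.51, 3.35 and 3.71 in HS and 3.24, 4.63 and 3.65 in HS_conFMT. It rose by 0.84 ± 0.126 (SE) against HS, with an adjusted p of 0.00327 by limma, and its highest value elsewhere was 4.81 FPKM, in control library 3. Its relative Phlpp2 was lower in HS_AOSFMT, at 4.91, 5.79 and 4.99 FPKM against 7.46, 6.73 and 7.40 in HS, with a change of -0.40 and an adjusted p of 0.0325.

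Pik3ip1, a membrane inhibitor of PI3 kinase, averaged 24.4 ± 4.14 FPKM in HS_AOSFMT against 12.3 ± 3.96 in HS (change 0.97, adjusted p 0.0142). Socs3, a feedback inhibitor of cytokine and insulin receptors, averaged 21.0 ± 4.89 FPKM against 11.01 ± 0.648 (change 0.85, adjusted p 0.0134). Ptpn2, a tyrosine phosphatase of the insulin receptor and of JAK kinases, averaged 40.7 ± 1.92 FPKM against 32.1 ± 1.62 (change 0.33, adjusted p 0.0348). Below AKT, Rheb, the small GTPase that activates mTOR complex 1, averaged 54.9 ± 0.480 FPKM against 42.9 ± 0.942 (change 0.35, adjusted p 0.00427). Pik3r5, a regulatory subunit of PI3 kinase gamma in leukocytes, averaged 19.9 ± 0.853 FPKM against 14.3 ± 2.07 (change 0.46, adjusted p 0.0271). Gab1, a docking protein related in role to IRS1, averaged 3.63 ± 0.325 FPKM against 5.48 ± 0.745 and fell (change -0.48, adjusted p 0.0311).

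The FOXO targets that rose included Il7r, the interleukin 7 receptor, and Pdk4, the kinase that shuts off pyruvate dehydrogenase. Il7r was at 42.65, 34.48 and 41.02 FPKM in HS_AOSFMT, 13.10, 20.71 and 15.95 in HS and 19.56, 27.16 and 25.11 in HS_conFMT, with changes of 1.22 (adjusted p 0.00286) and 0.70 (adjusted p 0.0322). Pdk4 was at 15.28, 11.24 and 13.98 FPKM in HS_AOSFMT, 4.84, 7.74 and 3.31 in HS and 5.50, 9.36 and 7.28 in HS_conFMT, with changes of 1.25 (adjusted p 0.00668) and 0.81 (adjusted p 0.0463). Every HS_AOSFMT library was above every other library for both genes. Of all genes, 38.5% did not overlap between HS_AOSFMT and HS, and 28.8% between HS_AOSFMT and HS_conFMT. Bcl6, a transcriptional repressor that germinal centre B cells require, rose against HS_conFMT (23.4 ± 0.441 against 16.7 ± 2.61 FPKM, change 0.48, limma adjusted p 0.0301). Against control the called genes also included Bcl2l11, Btg1 and Ptpn1, at 18.1, 204.8 and 56.2 FPKM in HS_AOSFMT against 13.1, 120.6 and 41.2 in control. These 3 calls ended in the fit of only the groups compared (adjusted p 0.0704, 0.0793 and 0.0691), which called 4 pathway genes. Those of Bcl2l11 and Ptpn1 also ended without control 1, HS 1 and HS_AOS 1 together (adjusted p 0.0514 and 0.134), and that of Ptpn1 without control 1, control 2, HS_AOSFMT 1 or HS_AOSFMT 3. Of the 19 genes called against control, Pdk4, Inpp5d, Il7r and Pik3r5 were the 4 called in each refit and setting.

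Inpp5d, Il7r, Phlpp1 and Pdk4 were the 4 of the 14 genes called against HS in each refit without 1 library and under each other setting. Rheb was called without any 1 library but had an adjusted p of 0.0556 with haemoglobin and acinar genes left out of the scaling. Calls of Socs3 ended without HS 1 or HS_AOSFMT 3, and those of Pik3ip1 without HS 1, HS 3, HS_AOSFMT 1 or HS_AOSFMT 3. Leaving out HS 1, HS_AOSFMT 1 or HS_AOSFMT 3 each ended the calls of Pik3r5, Gab1 and Ptpn2 against HS, with HS 3 doing so for Gab1 and Ptpn2, HS_AOSFMT 2 for Pik3r5, Gab1 and Ptpn2, and HS 2 for Ptpn2. The call of Phlpp2 ended without HS 1, HS 3, HS_AOSFMT 1 or HS_AOSFMT 3. Btg1 was called against HS in 0 of the 6 refits without a library and in 4 of the 9 other settings (limma adjusted p up to 0.191). Pik3cg was called in 1 of those 6 refits and in 3 of those 9 settings (adjusted p up to 0.176). Both lower calls against HS, Phlpp2 and Gab1, also ended with rescaling to equal totals (adjusted p 0.108 and 0.0643), which left 10 pathway genes higher and 0 lower, and without control 1, HS 1 and HS_AOS 1 together (adjusted p 0.105 and 0.123), which left 7 higher and 0 lower. Against HS_conFMT, Inpp5d and Phlpp1 were called in each refit and setting. There, Il7r, Pdk4, Pik3r5 and Bcl6 were each called in 1 of the 6 refits without a library and Socs3 in 2, with adjusted p up to 0.21.

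**Figure D4:**
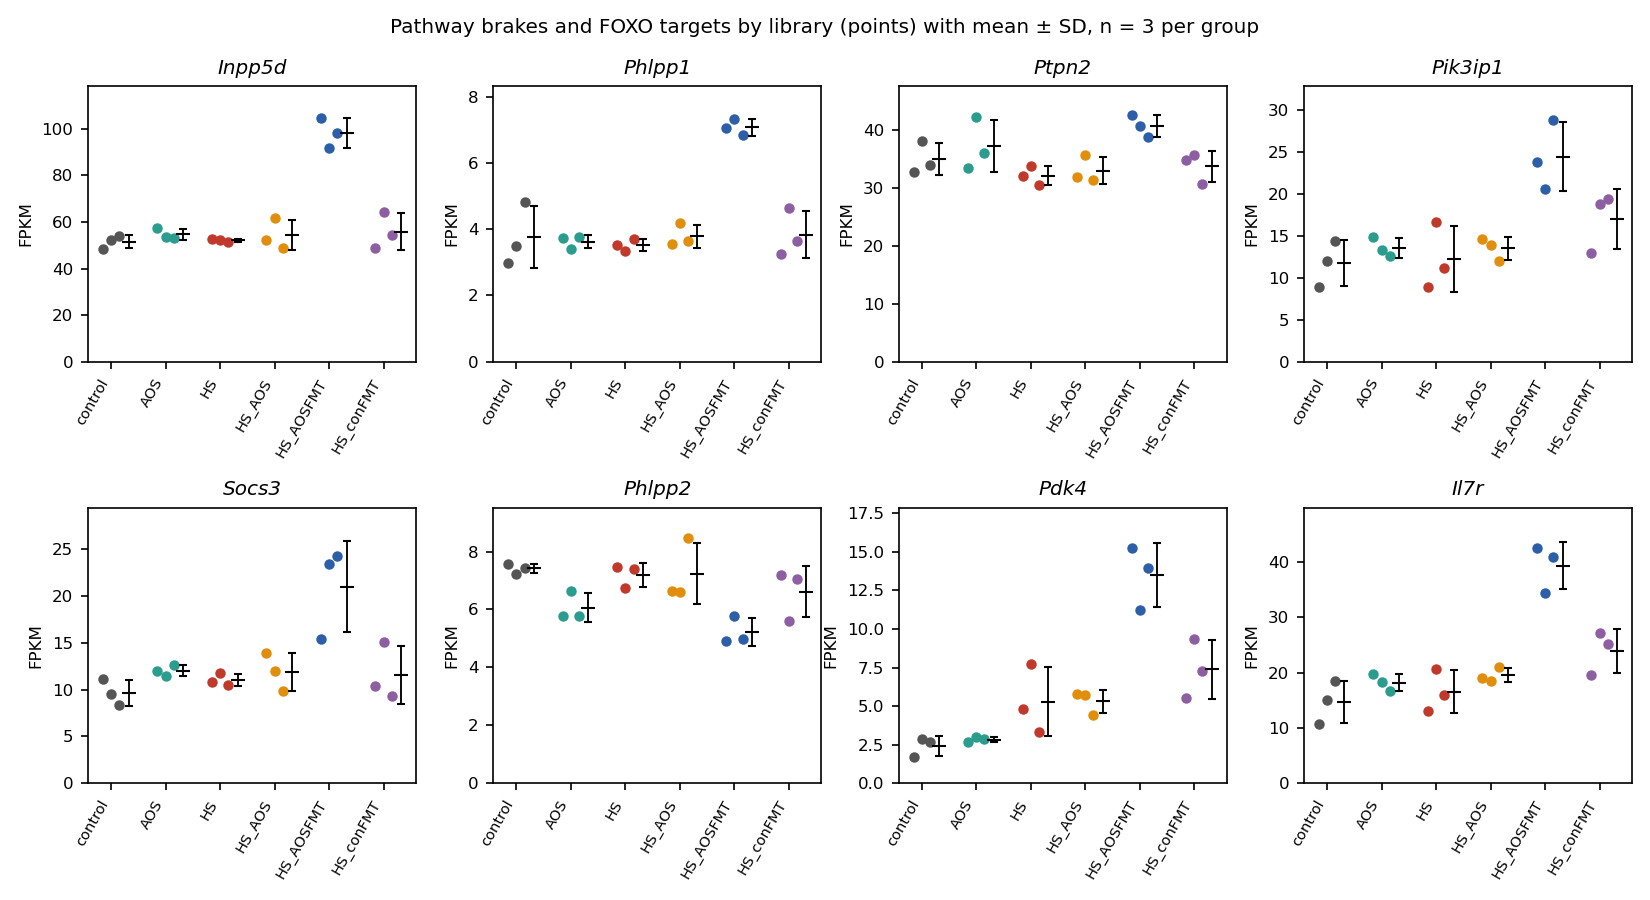
FPKM (linear axis from 0) of 6 brakes (Inpp5d, Phlpp1, Ptpn2, Pik3ip1, Socs3, Phlpp2) and 2 FOXO targets (Pdk4, Il7r) in the 18 libraries, with 1 point per library and a bar for the group mean ± SD (n = 3). The HS_AOSFMT points of Inpp5d, 91.94 to 104.75 FPKM, stand above all others, and those of Phlpp2 are low.

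Other measures moved with the HS_AOSFMT group. Of 13 glucocorticoid responsive genes, a list that also holds Pdk4, 9 rose against HS (69.2%, where 8.08% of all genes rose), and their summed level was 700.9 to 813.2 FPKM in HS_AOSFMT, 357.6 to 406.9 in HS and 422 to 551.8 in HS_conFMT. Of 11 T cell markers in the table, a list that also holds Il7r, 5 rose against HS (45.5%), with a summed level of 613.8 to 757 FPKM in HS_AOSFMT, 411.4 to 515.5 in HS and 431.6 to 612.2 in HS_conFMT. The summed erythroid markers were 57220 to 98780 FPKM in HS_AOSFMT, 155800 to 180100 in HS and 65530 to 194700 in HS_conFMT, where they overlapped HS_AOSFMT. The summed acinar markers were 20.27 to 68.22 FPKM in HS_AOSFMT, 2422 to 21190 in HS and 75.33 to 3981 in HS_conFMT. Their part in the changes of the pathway genes was not tested.

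In the comparisons with 0 called pathway genes, the 2 genes of smallest p in each are given by level alone. In HS against control they were Pdk4, at 5.30 ± 2.25 against 2.41 ± 0.620 FPKM, and Bcl2l11, an apoptosis inducer, at 16.4 ± 1.36 against 13.1 ± 1.33. In HS_conFMT against control they were Pdk4, at 7.38 ± 1.93 FPKM with an adjusted p of 0.0568 by limma, and Cish, a target of growth hormone and cytokine signals, at 6.03 ± 1.66 against 3.54 ± 0.409. Cish and Rheb were the pair for HS_conFMT against HS, where Cish was at 4.04 ± 0.166 FPKM in HS and Rheb at 48.2 ± 1.37 against 42.9 ± 0.942. Akt1 averaged 63.5 ± 6.17 FPKM in HS_AOS and 55.5 ± 3.88 in HS, and Bcl2l11 averaged 14.1 ± 0.864 against 16.4 ± 1.36. In AOS against control, Socs1 and Socs2, feedback inhibitors of cytokine receptors, averaged 13.9 ± 1.98 against 7.65 ± 2.36 and 9.51 ± 0.420 against 6.02 ± 1.07 FPKM. The interaction had Bcl2l11 and Gadd45b, a stress-induced gene, as its pair.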

How the data were processed

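Per the labels, spleens were frozen, RNA was isolated with Trizol and a column, and libraries followed Illumina protocols. Per the submitters' processing notes, the genome build was mm10 and the aligner Bowtie 0.12.2; for the counter, its annotation, its strand setting and any filtering the entry is: not given in the sources used here. As deposited, values are most likely FPKM: the authors' file does not name the unit, totals varied by 6.14% between libraries and by 1.61% when weighted by exon length, and 97.1% of symbols matched GENCODE M21. A search for steps of single reads settled on no depth, so no counts were recovered.

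From these values, 12969 of 19326 entries (67.1%), those at 1 FPKM or more in 3 or more libraries, were tested with limma 3.58.1 in R 4.3.3 on log2(FPKM + 1), a pseudocount of 1. The fit had group as its only factor over all 18 libraries (12 residual and 3.38 prior degrees of freedom), with trended and robust moderation, two-sided tests and Benjamini-Hochberg adjustment within each of 9 comparisons at a threshold of 0.05. Called genes are those past it, and groups are apart when all libraries of one exceed all of the other. The fit was tested on simulated data. Spearman correlations between libraries, across genes that are not independent replicates, were 0.936 to 0.989, and 0 pairs were identical. Gene positions are from GENCODE M21 on mm10, and upstream windows from RefSeq on GRCm38.p6.

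The 8 genes, the pathway and marker lists and the comparisons were chosen with earlier results of these data known. All 8 genes were tested in each comparison. Those with an unadjusted p under 0.05 or with groups apart were named there, so the naming followed the results. From the pathway lists, called genes up to 12 by smallest p were named, or the 2 of smallest p where none was called. A called gene of these lists enters the counts but is not reported here by name. Alternatives were a pseudocount of 0.1, no filter, a filter of 5 FPKM, rescaling to equal totals with and without haemoglobin and acinar genes, quantile normalization, the replicate number as a block, a fit of only the groups compared, leaving out control 1, HS 1 and HS_AOS 1 together, and leaving out each library in turn. The listed markers Trac, Ighm, Ighd and Ahsp were not used here, having matched no symbol.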

Additional observations from a re-analysis of the deposited data

How the results depend on the processing

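Irs1 and Igf1r did not pass the filter of 5 FPKM and were not tested under it. Where tested over the 9 other settings and the refits without 1 library, none of the 8 genes was called, with 1 exception. Irs2 was called in HS_AOSFMT against HS_conFMT with the replicate block (change 0.42, adjusted p 0.049 by limma). Over that result's other settings and refits the adjusted p was 0.0553 to 0.251 where a library was left out and up to 0.164 elsewhere. None of the 7 member changes printed turned in sign. Of 999 refits of the 65 others, 84 turned, the largest at 0.24, and 0 were called. Replicate numbers did not pair the libraries: deviations of same-numbered libraries had a median r of 0.0179 over 45 pairs (from -0.366 to 0.487), against -0.0260 over 90 pairs of different number.

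Counts of called pathway genes other than the 8 depended on the setting. In HS_AOSFMT against HS, 14 became 8 when rescaled without haemoglobin and acinar genes, 7 without control 1, HS 1 and HS_AOS 1, and 5 to 11 without 1 library (5 without HS 1 or HS_AOSFMT 3, 6 without HS_AOSFMT 1, 7 without HS 3). Against HS_conFMT, 8 became 3 when rescaled to equal totals, 4 when rescaled without haemoglobin and acinar genes, 2 with only the groups compared, and 2 to 10 without 1 library (2 without HS_AOSFMT 2, HS_AOSFMT 3, HS_conFMT 1 or HS_conFMT 3, 3 without HS_AOSFMT 1). In HS_AOSFMT against control, 19 became 4 with only the groups compared, 8 without the 3 libraries, and 9 to 32 without 1 library (9 without control 1, 10 without HS_AOSFMT 3, 11 without HS_AOSFMT 1, 32 without control 3). In HS_conFMT against control, 0 became 1 when rescaled without haemoglobin and acinar genes, with quantile normalization and with the replicate block, and 0 to 4 without 1 library (4 without control 3, 2 without HS_conFMT 1). HS against control gave 0 to 1, the 1 without control 3. The cause was not tested.

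Calls over all genes moved too. In HS_AOSFMT against HS, 1197 (1048 higher) became 346 (204 higher) without haemoglobin and acinar genes, 794 (564 higher) with quantile normalization, 403 without the 3 libraries and 200 to 751 without 1. Against HS_conFMT, 759 (624 higher) became 456 (236 higher), 704 (454 higher) with quantile normalization, 254 rescaled to equal totals, 191 with only the groups compared and 198 to 1200 without 1 library. Against control, 1558 (1255 higher) became 1045 (568 higher), 1333 (855 higher) with quantile normalization, 203 with only the groups compared, 434 without the 3 libraries and 445 to 3376 without 1. The other 6 comparisons called 0 to 5 genes, 0 to 16 under other settings and 0 to 101 without 1 library. The depth is unknown, so what it limits for the low Irs1 cannot be stated.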
